A study of Caenorhabditis elegans with 11 samples.

Results

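Loss of SET-32 in worms that still have MET-2 and SET-25 was examined in 4 RNA polymerase II (Pol II) ChIP-seq libraries, out of 11 samples in the series. Chromatin immunoprecipitation followed by sequencing (ChIP-seq) counts the DNA fragments that an antibody brings down, here an antibody to Pol II. The libraries were chosen by genotype: set-32(red11) and set-32(red11) hrde-1(tm1200) as carriers of the set-32 mutation, and the wild-type strain N2 and hrde-1(tm1200) as libraries without it. In all 4 genotypes met-2 and set-25 were intact, and all 4 came from young adult Caenorhabditis elegans hermaphrodites grown on E. coli OP50. The design gives 2 pairs that share no library: set-32 is set against N2, where HRDE-1 is present, and set-32 hrde-1 against hrde-1, where it is not. Each genotype has 1 library, so a difference within a pair has no replicate. The labels do not say whether the libraries came from separate cultures, and the p-values given here measure only the spread between these libraries. A further 4 Pol II libraries carry met-2(n4256) set-25(n5021) as well and were used for comparison. They are met-2 set-25, the same with hrde-1(tm1200), the triple mutant, which adds set-32 to met-2 set-25, and the quadruple mutant, which lacks all 4 genes. Of the other samples, the 3 libraries for trimethylated histone H3 lysine 9 were not analysed here.

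In nuclear RNA interference, small RNAs bound to an Argonaute protein find nascent transcripts in the nucleus and lower transcription at that place. HRDE-1 is the Argonaute that does this in the C. elegans germline, and it is required for silencing to be inherited over generations. SET-32 carries a SET domain, the catalytic fold of histone lysine methyltransferases, and is known for a role in starting heritable nuclear silencing. MET-2 and SET-25 are the methyltransferases that give most of the methylation of histone H3 at lysine 9. Pol II occupancy on a silenced stretch is a measure of its transcription, so a stretch held silent by SET-32 would carry more Pol II when SET-32 is lost. Whole animals were used, so a change in the number of cells of a type and a change in Pol II per cell cannot be told apart.

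Pol II was read in genome bins of 1 kb, in RPKM, which scales the reads of a bin to its length and to all reads of the library. Of the 100257 bins, 84160 had a mean of at least 2 RPKM over the 4 libraries and were tested. The estimated depth was 3.03 M reads in set-32, 6.06 M in set-32 hrde-1, 3.7 M in N2 and 5.72 M in hrde-1. A bin at 10 RPKM therefore rested on 30.3, 60.6, 37 and 57.2 reads in that order of genotypes, with a counting error of 18.2%, 12.9%, 16.4% and 13.2%. The reads of the set-32 library were the least evenly spread: its 90th percentile over bins was 25 times its 10th, against 14.5 times in set-32 hrde-1, 12 times in N2 and 14.1 times in hrde-1. It also had 520 bins at 0 RPKM, against 13 in set-32 hrde-1, 9 in N2 and 10 in hrde-1. The column names of set-32, set-32 hrde-1 and hrde-1 share 1 prefix and that of N2 carries another. The labels do not say what the prefix stands for, and in the pair with N2 the prefix and the genotype cannot be told apart. Both libraries of the hrde-1 pair carry the same prefix.

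No bin passed the test for set-32 loss. With hrde-1 status as a second term, limma called 0 of 84160 bins higher (0%) and 0 lower (0%) at a Benjamini-Hochberg adjusted p under 0.05, and the smallest adjusted p was 0.354. At an unadjusted p under 0.05 there were 5281 bins (6.27%), of which 1503 were higher and 3778 lower in the set-32 mutants. The median log2 difference over all bins, on the log2(RPKM + 1) scale, was -0.08. After each library was centred on its own median, limma called 123 bins higher and 47 lower. In that fit limma took each bin's spread wholly from the trend over all bins (infinite prior degrees of freedom). A bin's own disagreement between the pairs did not enter its p. The 123 bins had median differences of 0.49 in set-32 against N2 and 1.77 in set-32 hrde-1 against hrde-1. For the 47 bins these were -2.38 and -0.54. Whether single bins passed thus depended on the scaling and on the spread assumed. Of those 123 bins, 65 lay on the X chromosome and 55 within its first 260 kb. X held 13650 of the 84160 bins tested, and 13396 of its bins lay beyond 260 kb. In a fit of all 8 Pol II libraries with 1 library left out, higher and lower calls numbered 18 and 3 without set-32 and 0 and 42 without set-32 hrde-1. Leaving out N2 gave 7 and 0, and leaving out hrde-1 gave 0 and 3.

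The pairs did not move together across the genome. Within set-32 against N2 the median log2 difference was -0.12, with quartiles of -0.52 and 0.22. Within set-32 hrde-1 against hrde-1 it was -0.03, with quartiles of -0.27 and 0.20. The difference had the same sign in both pairs in 53% of the bins, and across the 84160 bins the differences of the pairs had a Pearson correlation of 0.039. These bins are neighbours on chromosomes and are not independent replicates. The set-32 against N2 difference followed the level of Pol II: with bins ranked by their mean in the 4 met-2 set-25 mutant libraries, its median was -0.41 in the lowest of 10 equal classes and 0.15 in the highest. In the hrde-1 pair the same medians were -0.02 and -0.01. That slope runs along with the uneven spread of reads in the set-32 library, whose part in the result was not tested.

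**Figure D1:**
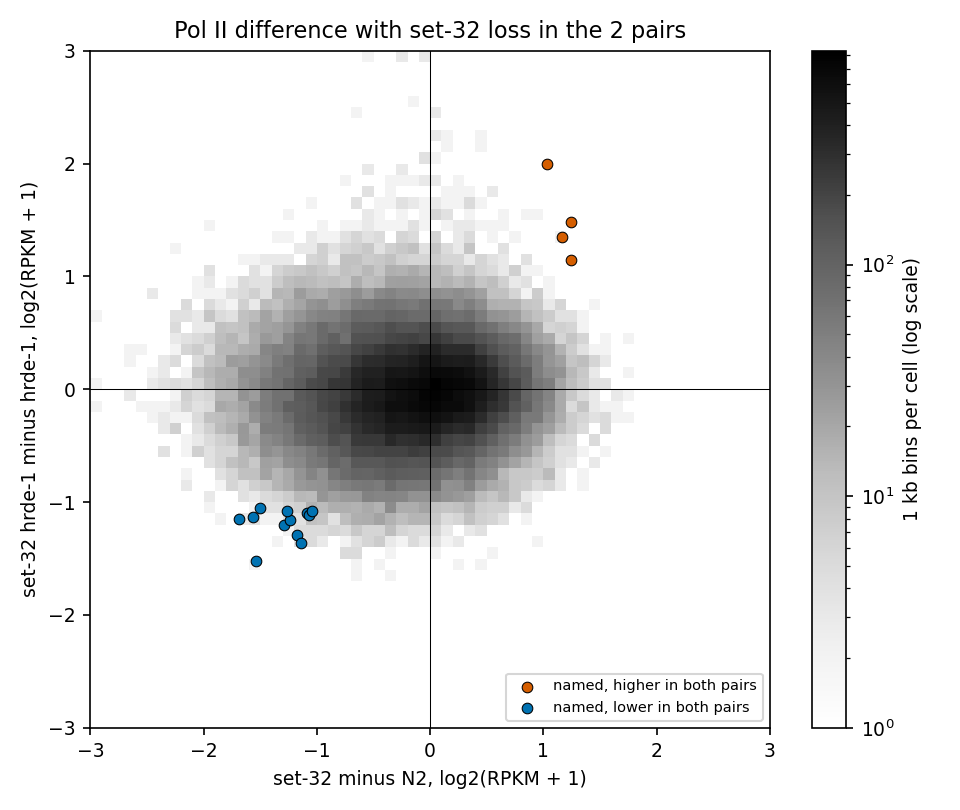
Each cell of the grid counts 1 kb bins by their log2(RPKM + 1) difference in set-32 against N2 (x axis) and in set-32 hrde-1 against hrde-1 (y axis), with the count on a log grey scale. The cloud is wider along x than along y and is not tilted (Pearson correlation 0.039), and the coloured points are the 4 named regions that stood higher and the 12 that stood lower in both pairs.

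A rule of size without a test was then used to find the bins with the largest differences. It asked that a pair differ by 1 or more on the log2 scale and that its higher library hold 10 RPKM or more. In both pairs at once, with the level set on the mean of the higher group, 5 bins in 4 regions were higher (0.00594% of bins) and 18 bins in 17 regions were lower (0.0214%). The balance turned with the scaling, to 17 higher and 6 lower bins after centring and 10 and 11 after quantile normalization. None of the regions named from these carried one of the authors' marks described further on. Regions were ranked by the smaller of their 2 pair differences. The 4 higher regions and the first 12 lower ones are those named here, and none passed the test. In 14 of the 16, the values of the set-32 mutants did not overlap those of N2 and hrde-1. The regions were chosen for a large difference of the same direction in both pairs, which makes a lack of overlap likely. Among all bins tested, both set-32 mutant libraries lay above both others in 13.2% and below both in 22.8%, so a lack of overlap is common with this number of libraries.

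The higher region with the largest difference in its weaker pair was V 796001 to 798000, a stretch of 2 kb. It read 8.66 RPKM in set-32 and 32.8 RPKM in set-32 hrde-1, against 3.3 RPKM in N2 and 10.9 RPKM in hrde-1. The groups overlapped, since hrde-1 stood above set-32, and each set-32 mutant stood above its own partner (log2 difference 1.36 ± 0.25 SE, smallest limma adjusted p 0.354). This region was also higher with hrde-1 loss, by 1.58 on the log2 scale where SET-32 was present and by 1.82 where it was lost. Without MET-2 and SET-25 it read 7.76 RPKM in the triple mutant against 6.32 in met-2 set-25 (log2 difference 0.25), and 28.8 RPKM in the quadruple mutant against 9.73 in met-2 set-25 hrde-1 (1.39).

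The bin IV 13601001 to 13602000 read 14.5 RPKM in set-32 and 18.0 RPKM in set-32 hrde-1, against 5.94 RPKM in N2 and 6.47 RPKM in hrde-1. Both set-32 mutants stood above both others, while hrde-1 loss moved the bin by only 0.11 on the log2 scale where SET-32 was present (set-32 difference 1.25 ± 0.25 SE, limma adjusted p 0.577). The other higher regions were single bins near the left end of X. X 183001 to 184000 read 24.4 RPKM in set-32 and 25.3 RPKM in set-32 hrde-1, against 11.4 RPKM in N2 and 5.57 RPKM in hrde-1 (1.51 ± 0.26 SE, limma adjusted p 0.521). X 172001 to 173000 read 13.7 and 11.1 RPKM in set-32 and set-32 hrde-1, against 5.25 and 4.43 RPKM in N2 and hrde-1. In both X bins the set-32 mutants were close to each other and above both libraries with SET-32.

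Among the lower regions, V 19048001 to 19049000 was the most even within each group. It read 6.28 RPKM in set-32 and 6.01 RPKM in set-32 hrde-1, against 20.2 RPKM in N2 and 19.1 RPKM in hrde-1. The set-32 mutants did not overlap the others, and hrde-1 loss made almost no difference in either state of SET-32 (log2 differences of -0.08 and -0.05). The set-32 difference was -1.53 ± 0.24 SE, with a limma adjusted p of 0.354. The bin after it, V 19049001 to 19050000, read 38 RPKM in set-32 and 45.9 RPKM in set-32 hrde-1, against 177 in N2 and 85.6 in hrde-1, so there most of the difference lay in the pair with N2.

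Several other lower bins had the same shape, with similar values within each group. II 9260001 to 9261000 read 4.94 and 5.45 RPKM in set-32 and set-32 hrde-1, against 13.5 and 13.8 RPKM in N2 and hrde-1. V 2786001 to 2787000 read 5.27 and 4.62 RPKM in the mutants, against 13.2 and 12.8 RPKM in N2 and hrde-1. V 1578001 to 1579000 read 4.61 and 4.87 RPKM, against 12.4 and 11.4 RPKM. In these bins N2 and hrde-1 stood close together and well above both set-32 mutants. The levels are low: these bins rested on 14 to 33 reads in the set-32 mutants.

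In another set of lower bins N2 stood above hrde-1. V 3776001 to 3777000 read 4.94 RPKM in set-32 and 4.79 RPKM in set-32 hrde-1, against 18.1 RPKM in N2 and 11.9 RPKM in hrde-1. X 3970001 to 3971000 read 6.79 and 3.99 RPKM in set-32 and set-32 hrde-1, against 16.2 and 11.8 RPKM in N2 and hrde-1. V 10473001 to 10474000 read 14.2 and 6.77 RPKM, against 30.2 and 15.4 RPKM, so that set-32 came close to hrde-1. IV 8320001 to 8322000 differed from the rest in that its Pol II was mostly seen in hrde-1 mutants: 1.32 RPKM in set-32 and 7.51 RPKM in set-32 hrde-1, against 4.32 in N2 and 17.9 in hrde-1. It overlapped between the groups and rested on 8 reads in set-32. The remaining lower regions, V 3802001 to 3803000, IV 15401001 to 15402000, I 10727001 to 10728000 and IV 5501001 to 5502000, had log2 differences between -1.34 and -1.09 and did not overlap between the groups. The limma adjusted p of the 16 named regions ran from 0.354 to 0.627.

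The named regions were read in the libraries without MET-2 and SET-25, which their choice did not use. Of the 12 lower regions, 8 were also lower in the triple mutant than in met-2 set-25, and 3 were lower in the quadruple mutant than in met-2 set-25 hrde-1. None of these differences reached 2-fold. Of the 4 higher regions, 3 were higher in the triple mutant than in met-2 set-25, and 2 in the quadruple mutant than in met-2 set-25 hrde-1. Only V 796001 to 798000 among the 4 was past 2-fold in such a pair. Across all bins tested, 41% were lower in the triple mutant and 36.1% in the quadruple mutant. The shares that were higher were 58.9% and 63.8%. The triple and the quadruple mutant were covered far more evenly than the others, with a 90th percentile 3.72 and 4.31 times the 10th, and what this does to the comparison was not tested.

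**Figure D2:**
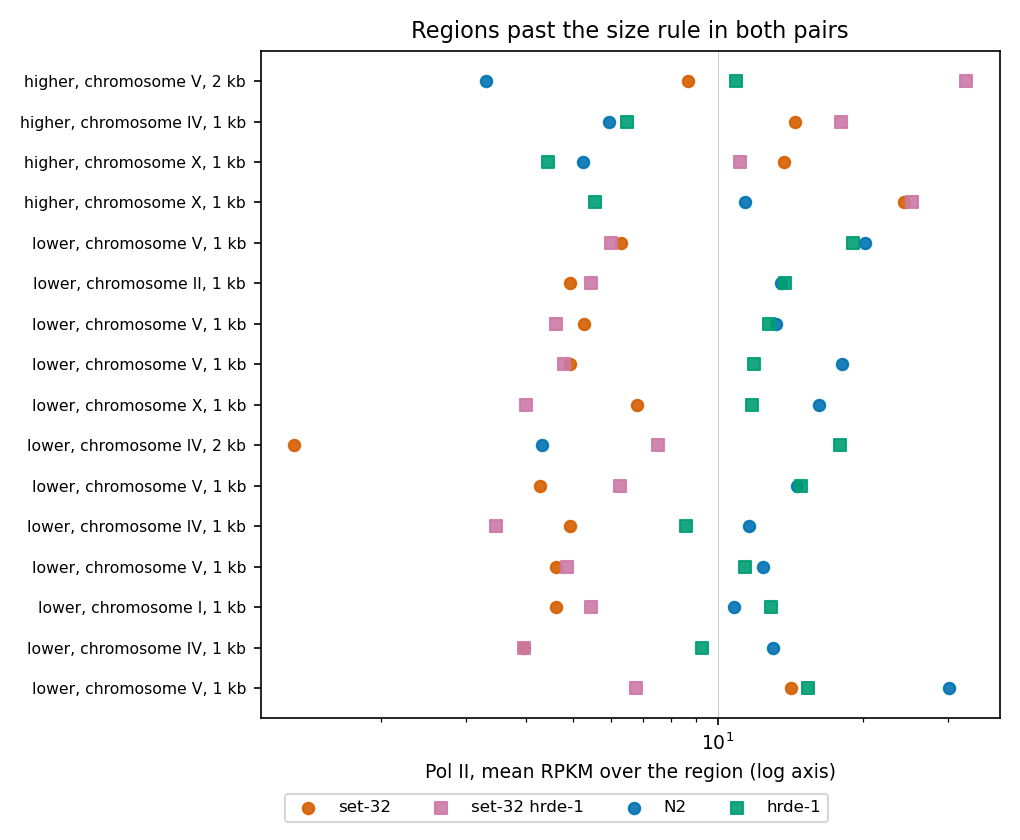
Mean Pol II in RPKM (log axis) of each named region in the 4 libraries, with the 4 higher regions on top and the 12 lower regions under them. In 14 of the 16 rows the symbols of set-32 and set-32 hrde-1 lie on one side of those of N2 and hrde-1. The exceptions are the 2 kb regions of chromosomes V and IV, and where only 1 symbol of a pair shows, the values coincide.

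Within single pairs the size rule found more bins. The rule chose each bin by the values of its own pair, so a library of that pair is likely to be highest or lowest. In set-32 against N2, 511 bins in 446 regions were higher (0.607%) and 1168 bins in 618 regions were lower (1.39%). The 1168 lower bins had medians of 6.92 RPKM in set-32, 9.41 in set-32 hrde-1, 19.5 in N2 and 9.97 in hrde-1. N2 was the highest of the 4 libraries in 1117 of them, and their median difference in the hrde-1 pair was -0.03. They were also high in met-2 set-25, at a median of 17.6 RPKM, with 13.2 RPKM in the triple mutant. Met-2 set-25 hrde-1 stood at 9.85 RPKM. Both of these libraries share the prefix of N2, and the part of the prefix in these values was not tested. Among the 511 higher bins, set-32 was the highest of the 4 in 403 and N2 the lowest in 494.

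The longest region lower in set-32 than in N2 was II 13282001 to 13298000. Over its 16 bins Pol II was 12.3 RPKM in set-32 and 15.2 RPKM in set-32 hrde-1, against 37.9 in N2 and 14.6 in hrde-1. The 3 mutants stood together and N2 stood alone, so the same stretch differed by -1.61 on the log2 scale in the pair with N2 and by 0.05 in the hrde-1 pair. II 10542001 to 10555000 read 47.8 RPKM in set-32 and 57.3 RPKM in set-32 hrde-1, against 108 in N2 and 58.6 in hrde-1. III 3889001 to 3897000 read 3.72 and 4.24 RPKM in the set-32 mutants, against 16.6 in N2 and 3.43 in hrde-1. All 3 stretches were thus low in every mutant of the comparison, hrde-1 included. Conversely, V 18720001 to 18725000 read 25.8 RPKM in set-32 and 37 RPKM in set-32 hrde-1, against 7.65 in N2 and 33 in hrde-1. Here N2 was alone in being low. All 5 bins of this stretch carry the authors' misanotated mark, described further on.

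In set-32 hrde-1 against hrde-1, where both libraries share a prefix and nearly the same depth, 354 bins in 106 regions were higher (0.421%) and 110 bins in 92 regions were lower (0.131%). The higher bins lay in longer regions. Their medians were 5.63 RPKM in set-32, 24.3 in set-32 hrde-1, 6.36 in N2 and 6.99 in hrde-1, and set-32 hrde-1 was the highest of the 4 libraries in 290 of the 354. The rule chose these bins for standing high in set-32 hrde-1 against hrde-1, so the ranks of these libraries are partly set by that choice. Their median difference in set-32 against N2 was -0.07. Within the first 260 kb of X, which held 103 of them, hrde-1 was the lowest of the 4 in 89, with medians of 13 RPKM in set-32 and 18.9 RPKM in set-32 hrde-1, against 11.6 RPKM in N2 and 4.34 RPKM in hrde-1. In the other 251, set-32 hrde-1 was the highest of the 4 in 234, with medians of 4.43 RPKM in set-32 and 27.9 RPKM in set-32 hrde-1, against 5.13 RPKM in N2 and 8.83 RPKM in hrde-1. Of the 354, 114 (32.2%) were also at least 2-fold higher in met-2 set-25 hrde-1 than in met-2 set-25, against 2.36% of all bins tested. X held 149 of the 354 (1.09% of the X bins tested) and V held 89 (0.56% of the V bins tested). The 110 lower bins had medians of 7.58 RPKM in set-32, 5.45 in set-32 hrde-1, 10.8 in N2 and 13 in hrde-1.

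The longest regions higher in the double mutant spanned 19 kb and numbered 5, of which 3 lay at the left end of X, described further on. III 13224001 to 13243000 read 3.28 RPKM in set-32 and 51.3 RPKM in set-32 hrde-1, against 4.62 RPKM in N2 and 11.0 RPKM in hrde-1. V 18444001 to 18463000 read 2.62 RPKM in set-32 and 27.5 RPKM in set-32 hrde-1, against 3.8 RPKM in N2 and 9.16 RPKM in hrde-1. In both of these stretches the single set-32 mutant was the lowest of the 4 libraries and the double mutant the highest. III 6633001 to 6649000 followed the same order with 5.24 and 43.7 RPKM in set-32 and set-32 hrde-1, against 7.99 and 13.5 RPKM in N2 and hrde-1. The longest region in the other direction was V 16101001 to 16106000, at 13.3 and 4.5 RPKM in set-32 and set-32 hrde-1, against 8.44 and 21.1 RPKM in N2 and hrde-1.

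**Figure D3:**
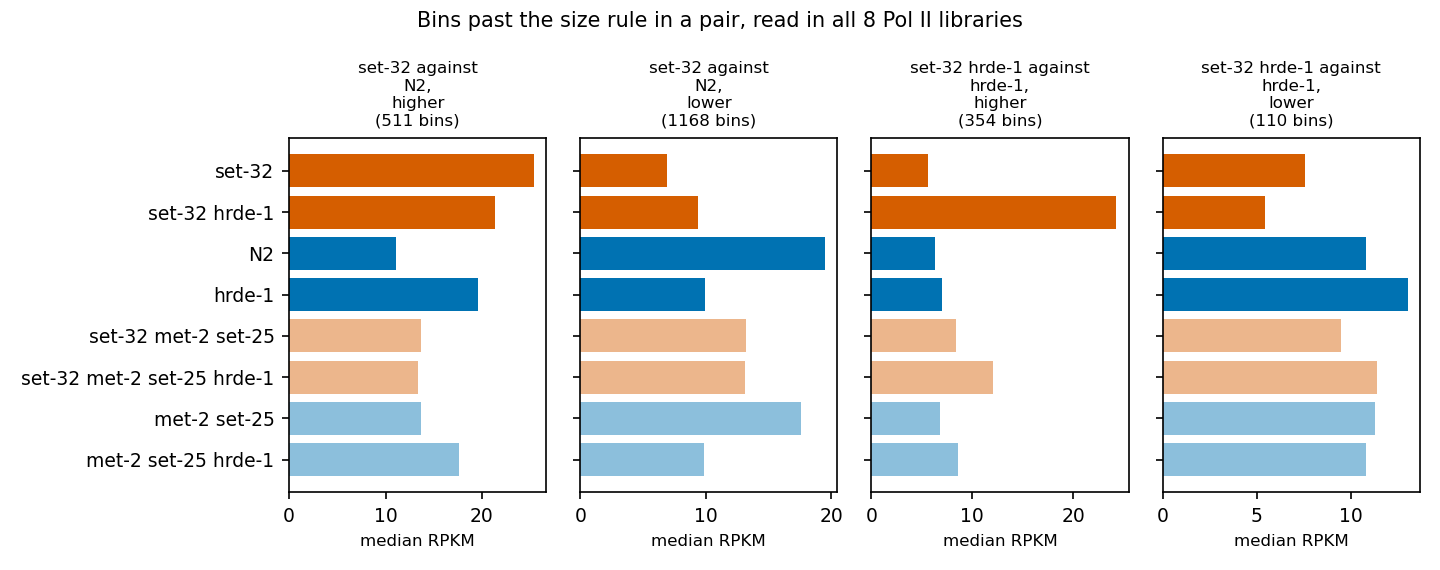
Median RPKM in all 8 Pol II libraries of the bins past the size rule, in 4 panels by pair and direction, with set-32 mutants in orange, libraries with SET-32 in blue and libraries without MET-2 and SET-25 in paler shades. In the panel of 1168 bins lower in set-32 than in N2, N2 (19.5) and met-2 set-25 (17.6) stand highest. In the panel of 354 bins higher in set-32 hrde-1 than in hrde-1, set-32 hrde-1 (24.3) stands alone. The bins of each panel were chosen by the values of its own pair.

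The deposited table marks bins as GRTS, GRH or misanotated (the authors' spelling). GRTS usually stands for regions whose transcription germline nuclear RNA interference silences, and GRH for regions whose heterochromatin depends on it. The authors may have set the marks with libraries like these, so the marked bins are not independent evidence. For set-32 loss, limma called 0 of 191 GRTS bins, 0 of 214 GRH bins and 0 of 502 misanotated bins in either direction, as it called 0% of all bins. At an unadjusted p under 0.05, GRTS held 27 higher and 7 lower bins (17.8% of its bins together), GRH 17 and 11 (13.1%) and misanotated 27 and 13 (7.97%), against 6.27% of all bins tested, of which 1.79% were higher and 4.49% lower.

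At GRTS bins the level went with hrde-1 status, and the set-32 difference had opposite signs in the pairs. The median GRTS bin read 3.95 RPKM in set-32 and 58.9 RPKM in set-32 hrde-1, against 5.6 RPKM in N2 and 34.0 RPKM in hrde-1. Where HRDE-1 was present, set-32 loss left these bins at a low level (median log2 difference -0.26, above 0 in 58 of 191 bins), and where HRDE-1 was lost the set-32 mutant read higher (0.27, above 0 in 139 of 191). The medians of all bins tested were -0.12 and -0.03, and the differences were above 0 in 41.2% and 46.4% of bins. The lower value in the pair with N2 was not particular to GRTS bins. Over all X bins tested, with a median of 4.32 RPKM in N2, the medians were -0.26 and -0.06. By the size rule 44 GRTS bins (23%) were higher in set-32 hrde-1 than in hrde-1 and 1 was lower, against 0.421% and 0.131% of all bins.

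The GRTS bins formed 80 regions, and the difference in the hrde-1 pair was concentrated in some of them. In 48 of the 80 the mean difference was above 0, and in 13 it was at least 1. Among all single bins tested, 46.4% were above 0 in that pair and 0.98% were at least 1. Some regions read nearly alike in every library. V 8826001 to 8837000 read 2.46 and 112 RPKM in set-32 and set-32 hrde-1, against 6.56 and 66 RPKM in N2 and hrde-1. V 8868001 to 8879000 read 2.49 and 112 RPKM, against 6.52 and 65.8 RPKM. Counts of GRTS bins and regions may thus hold the same signal more than once, and whether reads were shared between such copies was not tested. IV 915001 to 922000 had the largest mean difference in the hrde-1 pair: it read 2.82 RPKM in set-32 and 110 RPKM in set-32 hrde-1, against 4.16 RPKM in N2 and 13.8 RPKM in hrde-1. III 13239001 to 13243000 read 4.36 and 118 RPKM in set-32 and set-32 hrde-1, against 5.15 and 24.6 RPKM in N2 and hrde-1. In the IV 915001 and III 13239001 regions Pol II was low in both libraries with HRDE-1 and raised in both without it, most of all without SET-32. Others ran the other way, and IV 14415001 to 14417000 read 32.3 RPKM in set-32 hrde-1 against 55.4 RPKM in hrde-1, with set-32 at 2.31 and N2 at 2.56 RPKM.

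The GRTS bin with the highest value in a set-32 mutant, IV 4129001 to 4130000, hardly differed with SET-32. It read 11.2 RPKM in set-32 and 275 RPKM in set-32 hrde-1, against 9.86 RPKM in N2 and 243 RPKM in hrde-1 (log2 difference 0.17 ± 0.24 SE, limma adjusted p 0.918). The pair differences were 0.17 and 0.18, and the bin stood higher in hrde-1 than in N2 by 4.49 on the log2 scale.

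GRH bins differed less. Their medians were 15.5 RPKM in set-32 and 27.3 RPKM in set-32 hrde-1, against 13.4 in N2 and 26.8 in hrde-1, with median differences of 0.14 and -0.02 in the pairs. These were near those of the highest of the 10 level classes of all bins, 0.15 and -0.01. The highest GRH bin, I 4460001 to 4461000, which also carries the GRTS mark, read 16.5 and 213 RPKM in set-32 and set-32 hrde-1, against 14.3 and 264 RPKM in N2 and hrde-1. Misanotated bins read 11.6 RPKM in set-32 and 16.4 RPKM in set-32 hrde-1, against 15.8 in N2 and 16.2 in hrde-1. Thus set-32 stood below the other 3 libraries at the median misanotated bin. The highest of them, V 17131001 to 17132000, read 174 and 261 RPKM in set-32 and set-32 hrde-1, against 166 and 173 RPKM in N2 and hrde-1 (0.33 ± 0.31 SE, limma adjusted p 0.879).

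**Figure D4:**
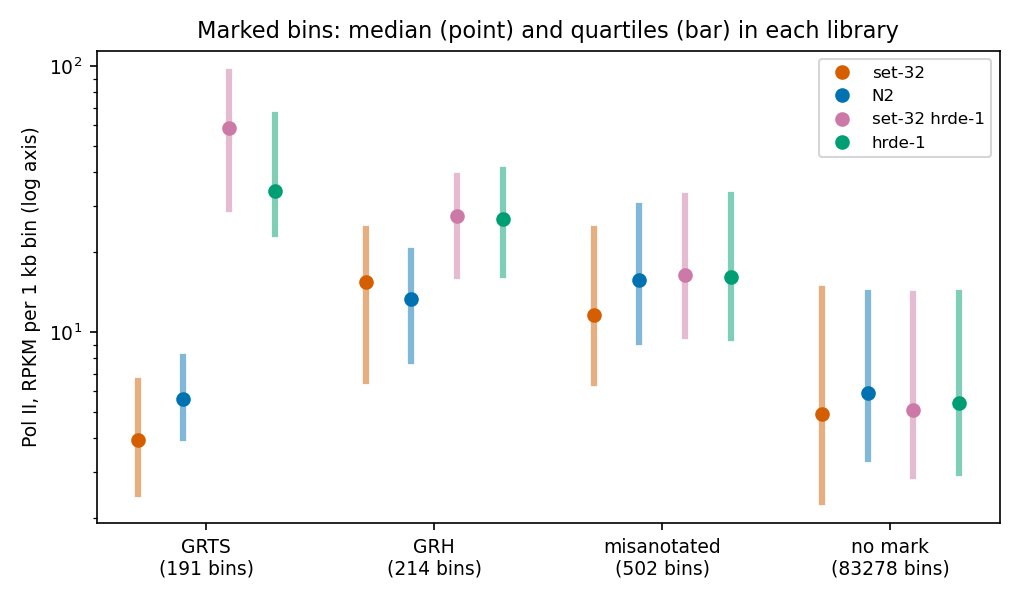
Median (point) and quartiles (bar) of Pol II per 1 kb bin in RPKM, on a log axis, for bins with each mark and without one, in the 4 libraries. At GRTS bins set-32 hrde-1 (58.9) and hrde-1 (34.0) stand far above set-32 (3.95) and N2 (5.6), and at the other bins the medians of the libraries lie closer together.

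By chromosome, the median of set-32 against N2 ran from -0.02 on I and III to -0.26 on X, with V at -0.20. In set-32 hrde-1 against hrde-1 it lay between -0.06 and -0.02 on every chromosome. X and V also have the lowest Pol II levels, with medians of 3.35 and 3.62 RPKM in set-32, against 4.32 and 4.59 RPKM in N2. Within autosomes, the outer parts differed from the middle part by -0.04 in the pair with N2 and by 0.00 in the hrde-1 pair. In most of the C. elegans germline X is largely silent. Among 1003 windows of 100 kb, the median of set-32 against N2 lay between -0.687 and 0.267 and reached 0.5 in size in 21, all of them lower. In the same windows the median of set-32 hrde-1 against hrde-1 reached 0.5 in size in 3, and these were the first 3 windows of X.

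The left end of X was the widest stretch on which the hrde-1 pair differed. Over its first 200 kb Pol II averaged 14.0 RPKM in set-32 and 14.1 RPKM in set-32 hrde-1, against 12.5 RPKM in N2 and 6.81 RPKM in hrde-1. The level was thus low in hrde-1 alone, and set-32 hrde-1 stood near the libraries with HRDE-1. Of the 195 bins tested there, 170 were higher in set-32 hrde-1 than in hrde-1 and 95 (48.7%) at least 2-fold. Over all bins tested these shares were 46.4% and 0.98%. In set-32 against N2, 120 of the 195 were higher and 4 (2.05%) at least 2-fold, against 41.2% and 1.06% of all bins. By limma none passed for set-32 loss (smallest adjusted p 0.521), and 85 (43.6%) had an unadjusted p under 0.05 in the higher direction, against 1.79% of all bins.

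The same 200 kb were low with hrde-1 loss on top of met-2 set-25 loss whatever the state of set-32. They read 4.61 RPKM in the quadruple mutant and 6.22 RPKM in met-2 set-25 hrde-1, against 14.1 RPKM in the triple mutant and 10.4 RPKM in met-2 set-25. So of the 4 hrde-1 mutants only set-32 hrde-1 had a level like that of the libraries with HRDE-1, which rests on 1 library. X 180001 to 199000 shows this most evenly, with 17.9 and 17.8 RPKM in set-32 and set-32 hrde-1, against 13.2 and 4.51 RPKM in N2 and hrde-1. X 42001 to 61000 read 28.7 and 32.6 RPKM, against 21.7 and 9.21 RPKM.

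Next to it the pattern was another. Over X 246001 to 256000 Pol II was 5.72 RPKM in set-32 and 25.1 RPKM in set-32 hrde-1, against 5.64 RPKM in N2 and 3.47 RPKM in hrde-1. The double mutant alone was high, and the 4 libraries without MET-2 and SET-25 read 3.46 to 7.12 RPKM. X 226001 to 232000 had the same form, at 4.28 and 20.2 RPKM in set-32 and set-32 hrde-1, against 4.37 and 5.58 RPKM in N2 and hrde-1. Of the 13650 X bins tested, 13396 lay beyond 260 kb. By the size rule 0.421% of all bins tested were higher in set-32 hrde-1 than in hrde-1. On X such bins numbered 46 beyond 260 kb, against 103 within it. X 1665001 to 1670000 was 1 of the stretches beyond 260 kb, at 1.34 and 25.2 RPKM, against 2.93 and 2.95 RPKM. X 17117001 to 17135000 was another, at 4.36 and 15.8 RPKM, against 3.65 and 5.85 RPKM.

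**Figure D5:**
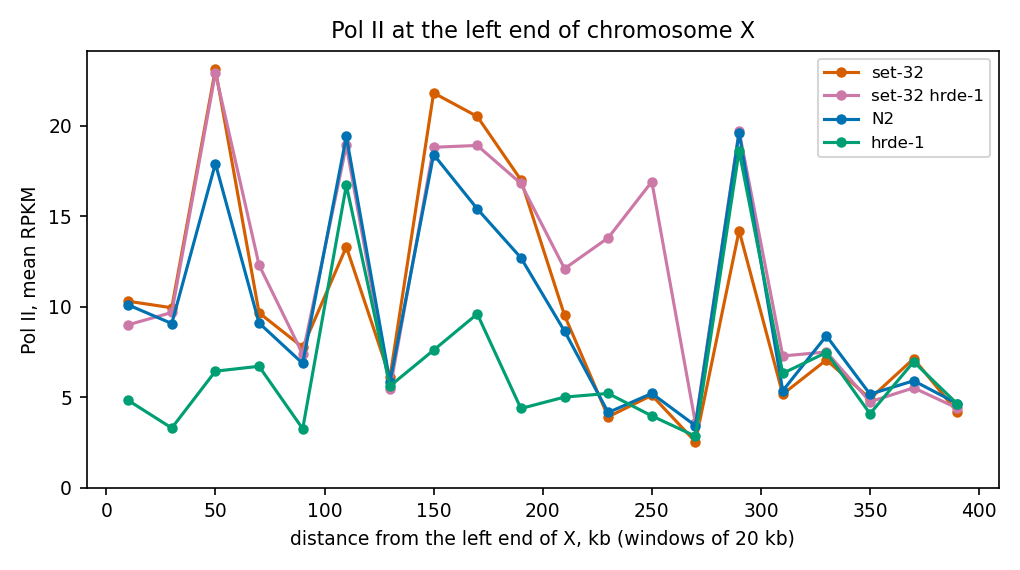
Mean Pol II in RPKM in windows of 20 kb along the left end of X, by distance from its left end, in the 4 libraries. Over the first 200 kb hrde-1 lies under the others in most windows (6.81 RPKM over all 200 kb, against 14.0 in set-32, 14.1 in set-32 hrde-1 and 12.5 in N2), and between 220 and 260 kb set-32 hrde-1 lies above the others.

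A stretch of chromosome V was nearly empty in 1 library. From V 1745001 to 1756000 the set-32 hrde-1 library held 0.0136 RPKM, about 1 read over 11 bins, and 8 of the bins were at 0. Set-32 read 4.32 RPKM there, N2 4.87 RPKM and hrde-1 4.46 RPKM, the last from 281 reads. The libraries without MET-2 and SET-25 read 4.09 to 6.9 RPKM. Only 5 of the 11 bins were among those tested. Over the whole genome the set-32 hrde-1 library had 16 bins at or under 0.1 RPKM, and its 10th percentile was 1.65 RPKM. No input DNA library was used here, and whether DNA or Pol II was missing was not tested. Of the bins in this stretch, 4 were among the 47 called lower after centring. Those calls cannot be read as a change in Pol II.

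Whether the set-32 difference depended on MET-2 and SET-25 was tested as an interaction over the 8 Pol II libraries. By limma 155 bins (0.184%) had a more positive set-32 difference where MET-2 and SET-25 were intact and 21 (0.025%) a more negative one, with 16071 bins (19.1%) at an unadjusted p under 0.05. The 155 bins were those with much Pol II. Their medians were 42.5 RPKM in set-32 and 45.2 RPKM in set-32 hrde-1, against 28.1 in N2 and 34.3 in hrde-1. Without MET-2 and SET-25 they were 13.5 in the triple mutant and 13.1 in the quadruple mutant, against 33.6 in met-2 set-25 and 51.6 RPKM in met-2 set-25 hrde-1.

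III 4489001 to 4490000 had the largest interaction of these. It read 133 and 122 RPKM in set-32 and set-32 hrde-1, against 78.9 and 97.6 RPKM in N2 and hrde-1. With MET-2 and SET-25 lost as well it read 16.2 RPKM in the triple and 21.5 RPKM in the quadruple mutant, against 96.5 RPKM in met-2 set-25 and 158 RPKM in met-2 set-25 hrde-1 (interaction 3.20 ± 0.39 SE, limma adjusted p 0.0101). Most of this difference lay in the triple and the quadruple mutant, the evenly covered libraries, and the part of that evenness was not tested. Without set-32, or without N2, 0 bins passed by limma in either direction, with 9455 and 8972 at an unadjusted p under 0.05. Without hrde-1, 0 were more positive and 5 more negative, and without set-32 hrde-1 the counts were 643 and 1874.

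Whether the set-32 difference depended on HRDE-1 was tested in the same way, in a model added after the data were seen. By limma 5 bins (0.00594%) in 3 regions had a more positive set-32 difference with HRDE-1 lost and 0 (0%) a more negative one, with 3367 bins (4%) at an unadjusted p under 0.05. The largest region was V 18119001 to 18122000. It read 3.62 RPKM in set-32 and 56.3 RPKM in set-32 hrde-1, against 5.31 RPKM in N2 and 4.61 RPKM in hrde-1. Without MET-2 and SET-25 it read 7.59 RPKM in the triple mutant and 146 RPKM in the quadruple mutant, against 6.21 RPKM in met-2 set-25 and 25.1 RPKM in met-2 set-25 hrde-1.

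At V 18119001 to 18122000 the highest values of either background were thus those of the libraries that lack SET-32 and HRDE-1 together (interaction 2.99 ± 0.47 SE, smallest limma adjusted p 0.0074). The other calls, II 14602001 to 14603000 and V 20708001 to 20709000, had another form, in which the set-32 difference was negative with HRDE-1 present. The first read 8.89 and 9.57 RPKM in set-32 and set-32 hrde-1, against 36.7 and 5.77 RPKM in N2 and hrde-1, and the second 4.94 and 7.92 RPKM, against 36.5 and 8.22 RPKM. Without MET-2 and SET-25 the first read 14.9 RPKM in the triple and 25.4 RPKM in the quadruple mutant, against 39.6 RPKM in met-2 set-25 and 7.27 RPKM with hrde-1 lost as well. The second read 12.2 and 20.2 RPKM in the triple and the quadruple mutant, against 34 and 6.82 RPKM. In both bins N2 and met-2 set-25 stood above every other library. After centring or quantile normalization 0 bins passed by limma, with 3432 and 4115 at an unadjusted p under 0.05. More positive and more negative bins numbered 164 and 44 if set-32 hrde-1 was left out, 31 and 14 if N2 was, 201 and 51 if hrde-1 was, and 4 and 1 if set-32 was.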

How the data were processed

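Pol II ChIP-seq of 8 genotypes was deposited by the authors as RPKM in 1 kb bins of the whole genome. Alignment used Bowtie 0.12.7, per the submitters' processing notes, with no genome build, filter or handling of multiply mapped reads stated (not given in the sources used here). Regions are placed by the deposited table's own positions. They carry no gene names, because the annotation provided uses other coordinates, and the mutated genes were not checked. A further 35 library columns matched no sample and were not used.

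Bins averaging at least 2 RPKM over the 4 libraries were tested on log2(RPKM + 1) with limma 3.58.1 in R 4.3.3, with an intensity trend and terms for set-32 and hrde-1. Tests were two-sided, Benjamini-Hochberg adjusted over all bins, with a threshold of 0.05. The 4 libraries leave 1 residual degree of freedom, beside 16.88 that limma borrows across bins. After centring the borrowed number was infinite, so a bin's own spread did not enter its p. The same held by HRDE-1 status with set-32 hrde-1 or N2 left out. The log scale with a pseudocount of 1 RPKM understates the change of low bins. Read numbers were estimated from the steps between low values, of which 82.9 to 84% per library lay within 0.1 of a whole read in the 4 libraries, so no count model was used. Intervals and errors of this kind cover counting only. No libraries held identical values. Regions join same-direction bins that are no more than 1 bin apart. Their values are means over these bins, and the p is the smallest of its bins.

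Named regions were to be the first 12 per direction past the threshold. With none past it, the list was filled from bins at least 2-fold different in both pairs, ranked by the smaller difference. The highest bin of each mark was added. Other regions were named as the longest or largest of a class after their values were seen. Alternatives were a pseudocount of 0.5 RPKM, a mean of at least 5 RPKM or no filter, centring, quantile normalization, other models and leaving out each library. The members and lists were chosen with earlier results of these data known. The test was tried on simulated data with the same noise in every library. This does not show how it behaves with reads as unevenly spread as in set-32. Tables and plots used Python 3.11.15 with matplotlib 3.10.9, pandas 2.3.3 and numpy 2.4.6.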

Additional observations from a re-analysis of the deposited data

Results flagged for a closer look

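The median set-32 difference had opposite signs in set-32 hrde-1 against hrde-1 and in set-32 against N2 for the marked bins. For GRTS it was 0.27 and -0.26, for GRH -0.02 and 0.14, and for misanotated bins 0.04 and -0.43. The GRH values were near those of the highest of the 10 level classes of all bins tested, -0.01 and 0.15. GRTS and misanotated bins had the reverse signs. In the 10 level classes the median of the hrde-1 pair lay between -0.07 and -0.01. Autosome arms minus centres gave 0.00 and -0.04. These differences between the pairs were not tested, as each pair has 1 library per genotype. The tests over bins gave 155 bins with a more positive and 21 with a more negative set-32 difference where MET-2 and SET-25 were intact, and 5 with a more positive one where HRDE-1 was lost (limma, Benjamini-Hochberg adjusted).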

How the results depend on the processing

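For set-32 loss, limma gave 0 higher and 0 lower bins under every alternative run (2642 to 6110 at an unadjusted p under 0.05) but centring (123 and 47) and leaving out a library in a fit of 8 libraries. That gave 0 to 18 higher and 0 to 42 lower. The test by MET-2 and SET-25 status gave 103 more positive and 15 more negative bins with a pseudocount of 0.5 RPKM, 72 and 10 with bins averaging at least 5 RPKM, 213 and 38 with no filter, 798 and 37 centred, and 26 and 7 after quantile normalization. Leaving out a library gave 0 to 643 and 0 to 1874. By HRDE-1 status it was 0 centred, 0 after quantile normalization, and 4 to 201 more positive and 1 to 51 more negative with a library left out. Bins higher by size in both pairs numbered 9 with a pseudocount of 0.5 RPKM, 17 centred and 10 after quantile normalization, and lower bins 6 centred and 11 after quantile normalization. The GRH median was 0.22 centred, against 0.08. Of the 16 named regions, 8 passed after centring, in the fit without a bin's own spread, and none reversed. They were chosen for differing the same way in both pairs of these libraries, so this is not independent support. The cause of the changes with processing was not tested. Removing a library leaves a genotype without a value. The fits for set-32 loss and by MET-2 and SET-25 status then take the hrde-1 difference as equal across genotypes. The fit by HRDE-1 status takes the met-2 set-25 difference as equal across genotypes. Each set-32 mutant was paired with its partner through the hrde-1 term of the model. Beyond that term, no paired analysis was possible because each genotype has 1 library and the labels number no replicates. Without that term 0 bins passed, with 4219 at an unadjusted p under 0.05. At 10 RPKM, counting alone gave an error of 12.9 to 18.2%.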
